A study of Mus musculus with 6 samples.

Results

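The miR-21a hairpin of the mouse gives rise to a guide arm, mmu-miR-21a-5p, and a passenger arm, mmu-miR-21a-3p. Both were measured in exosomes of RAW 264.7 cells, with and without lipopolysaccharide (LPS). The members were the 2 miRNAs listed under those systematic names, out of 1881 mouse miRNAs on the array, and both were present in all 6 scanner files and in the deposited value table. RAW 264.7 is an established mouse macrophage-like cell line, and LPS is a component of the outer membrane of Gram-negative bacteria that is sensed by Toll-like receptor TLR4. Exosomes are small vesicles that cells release, here collected from culture supernatant on size-exclusion columns. The control group consisted of 3 exosome preparations of untreated cells. The LPS group consisted of 3 preparations of cells given LPS at 2 µg/mL in complete medium, with the supernatant taken after 72 h. The collection time of the controls is not given separately, and the labels name no genetic change in either group. Each preparation was hybridised to 1 one-colour (Cy3) array. The labels do not say whether the replicates are separate cultures, and p-values therefore measure only how far these preparations spread, possibly for technical reasons.

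MicroRNAs are cut from a hairpin precursor as a duplex of arms, of which the guide is loaded into an Argonaute protein and the passenger is mostly degraded. The guide finds its target mRNAs chiefly through its seed, the stretch that starts at its second base. In macrophages miR-21 is known as an abundant miRNA whose transcription is raised downstream of TLR4, NF-κB and STAT3, and whose targets include Pdcd4, a pro-inflammatory translation inhibitor.

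The mature arms and the relatives of the guide arm are shown because the seed decides which miRNAs share its targets. Sequences are from RefSeq, with positions in GRCm38.p6, and the seed (bases 2 to 8) is in capitals.
mmu-miR-21a-5p: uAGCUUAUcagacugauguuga
mmu-miR-21a-3p: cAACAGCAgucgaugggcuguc
mmu-miR-21c: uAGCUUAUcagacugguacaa
mmu-miR-21b: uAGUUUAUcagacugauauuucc
The guide arm lies on the minus strand at chr11:86584120-86584141 and the passenger arm at chr11:86584082-86584103. Among 1679 RefSeq mature miRNAs, 1 other miRNA, miR-21c, had the seed of miR-21a-5p, and 0 others had the seed of miR-21a-3p. miR-590-5p was not matched to an entry of that table and so is not in this count; the complement of its 22-base array probe has the letters of the miR-21a-5p seed at bases 2 to 8. Counted from 1 at the 5′ end of miR-21a-5p, miR-21c differed by A16G, G18A, U19C, U20A and G21A, all outside the seed. miR-21b differed by C4U, G18A, G21U and A22C, of which C4U lies in the seed, so that miR-21b has a different seed.

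The hairpin is shown because both arms come from 1 precursor of 92 bases, with the 5p arm first and the 3p arm second in capitals.
Mir21a hairpin: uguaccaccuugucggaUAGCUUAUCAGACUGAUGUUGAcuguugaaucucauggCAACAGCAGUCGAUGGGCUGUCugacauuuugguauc
It occupies chr11:86584067-86584158 on the minus strand. This lies inside the span of the gene Vmp1, a membrane protein of autophagy, at chr11:86583858-86683836, and 209 bases from the lower end of that span. The gene table used here gives spans and no exons, so the hairpin is not placed in an exon, intron or UTR.

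The array probes are shown because the arms were measured by probes of different length. Their letters are from the scanner files, 5′ to 3′.
miR-21a-5p, 20-base probe: tcaacatcagtctgataagc
miR-21a-5p, 19-base probe: tcaacatcagtctgataag
miR-21a-3p, 15-base probe: gacagcccatcgact
miR-21a-3p, 14-base probe: gacagcccatcgac
miR-21a-3p, 13-base probe: gacagcccatcga
miR-21a-3p, 12-base probe: gacagcccatcg
In the mm9 build that the file headers use, the 20-base probe maps to chr11:86397588-86397607 and the 15-base probe to chr11:86397631-86397645. The guide-arm probes pair with bases 3 to 22 and 4 to 22 of the mature miRNA. The 4 passenger-arm probes pair with bases 8, 9, 10 or 11 through 22. Probes of different letters bind with different strength, so no level of 1 probe is set against that of another, and the level of the guide arm is not compared with that of the passenger arm.

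The 6 arrays lay on 1 slide, the 3 controls and LPS 1 in its first row and LPS 2 and 3 in its second row. By the scanner software's detection flag, 213 to 228 miRNAs were detected on control arrays and 412 to 446 on LPS arrays. A total of 198 miRNAs were detected on all 6 arrays. Their 75th percentile of signal was 431 to 510 on the controls and 2022 to 2343 on the LPS arrays, 4.67 times higher on average, while the spiked-in RNAs were 0.878 times as bright. Arrays were therefore compared both as scanned and after division by that percentile, which gives each miRNA relative to the others in the same preparation. More vesicles and more miRNA in each vesicle cannot be told apart in such bulk preparations. A difference in the amount of exosomal RNA put on each array was not tested either. The miRNAs of blood cells were present: miR-223-3p and miR-142a-3p were detected on all 6 arrays and miR-142a-5p on the 3 LPS arrays. Their summed signal, with values below 0 counted as 0, was 89.0 to 101 on the controls and 742 to 984 on the LPS arrays, and 200 to 212 and 378 to 432 after scaling. Of 5 serum and erythroid miRNAs on the array, miR-122-5p, miR-451a, miR-144-3p and miR-486a-5p were detected on no array, and miR-192-5p on the 3 LPS arrays. Summed, these 5 had a signal of 40.8 to 42.2 on the controls and 193 to 214 on the LPS arrays, but 82.4 to 101 and 92.5 to 98.1 after scaling. All 5 fibroblast and mesenchymal miRNAs were undetected, with a summed signal of 13.7 to 15.7 on the controls and 15.2 to 22.4 on the LPS arrays, and 29.0 to 32.6 and 6.75 to 11.4 after scaling. Of 5 epithelial miRNAs, miR-200c-3p was detected on the 3 LPS arrays and the other 4 on none, with a summed signal of 3.74 to 7.70 on the controls and 59.3 to 67.5 on the LPS arrays, and 7.86 to 18.4 and 26.5 to 30.2 after scaling. The part of other cells or of serum in the values of the miR-21a arms was not tested.

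miR-21a-5p, the arm that acts on target mRNAs, was higher in exosomes of LPS-treated cells on every scale examined. On its brighter, 20-base probe the background-subtracted signal was 2886, 3595 and 3380 on control arrays 1 to 3. On LPS arrays 1 to 3 it was 33736, 41870 and 42519. All 3 LPS arrays were far above all 3 controls, and LPS 1 was the lowest of the LPS arrays. The mean signal rose from 3287 ± 364 (SD, n = 3) to 39375 ± 4894 (SD, n = 3), a ratio of 12. An exact two-sided permutation test gave p = 0.1, the smallest value that 3 arrays against 3 allow. No spot of the 2 probes was saturated, and every spot used was well above background on all 6 arrays.

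Relative to the other miRNAs of each preparation the rise of miR-21a-5p was smaller. The scaled log2 signal was 12.75, 12.82 and 12.79 on the controls and 14.07, 14.17 and 14.20 on the LPS arrays. The groups did not overlap, and the distance between them was many times the spread within either. The change was 1.36 on the log2 scale (SE 0.05), 2.56-fold, with an adjusted p of 4.33e-07 by limma with Benjamini-Hochberg adjustment over 412 miRNAs. Such a call was common: 65.5% of the 412 tested miRNAs were called higher in LPS, 26.7% lower and 92.2% either, and the groups did not overlap for 93.4% of them. Of the miRNAs seen on every array, 58.1% were called higher and 38.4% lower, 96.5% in either direction, and 98.5% did not overlap between groups. With slide row as a block the change was 1.28, and within the first row, scaled anew, it was 1.31. No control lay in the second row, so both values set LPS 1 alone against the 3 controls. They are not separate checks, and the spread of LPS arrays does not enter either change. No scaling gave 3.58 (SE 0.12) and the spiked-in RNAs gave 3.77 (SE 0.07), against 0.92 (SE 0.04) after quantile normalization.

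The authors' own normalized table gave the same direction for the guide arm. Its log2 values for miR-21a-5p were 11.37, 12.07 and 11.98 in the controls and 13.60, 13.57 and 13.54 in the LPS samples. Control 1 was the lowest control and stood apart from the other 2 in that table, whereas the LPS samples lay close together. The difference between the group means was 1.76 (limma SE 0.19, adjusted p = 1.62e-04). The gene total signal that the scanner software sums over the probes of a miRNA was 752, 937 and 860 in the controls and 11995, 15487 and 15282 in the LPS samples, a ratio of 16.8 before scaling.

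The shorter probe of the guide arm, which lacks the last base of the longer one, gave a similar account. The 19-base probe read 659, 822 and 678 on the controls and 8062, 11005 and 10508 on the LPS arrays. Its LPS values again lay all above the controls with LPS 1 lowest. The unscaled ratio was 13.7, and the scaled change was 1.55, or 2.92-fold, with an exact permutation p of 0.1.

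**Figure D1:**
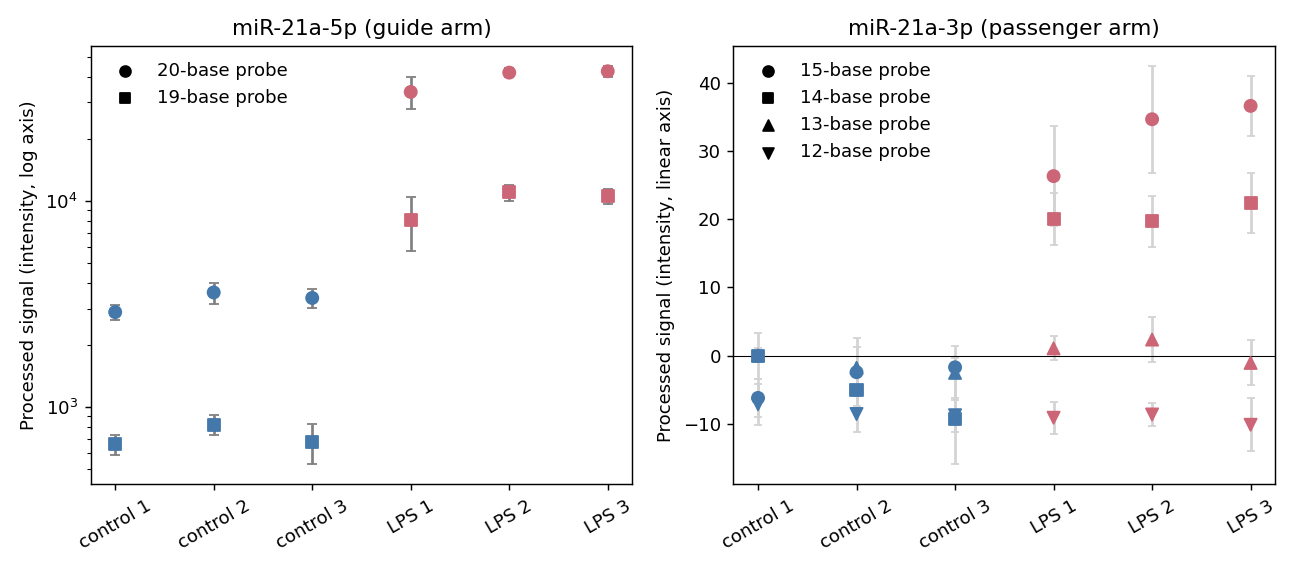
Mean processed signal (background-subtracted intensity) of each probe on each of the 6 arrays, with the SD over the spots of that probe as error bars, for miR-21a-5p on a log axis (left) and miR-21a-3p on a linear axis (right). Both guide-arm probes and the 15- and 14-base passenger-arm probes were higher on all 3 LPS arrays, while the 12- and 13-base probes overlapped between groups.

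Each guide-arm probe was printed 15 times on an array, which shows how even the signal was. The spots of the 20-base probe varied by a coefficient of variation of 17.7% on LPS 1 and of 4.96% to 11.7% on the other arrays. LPS 1 thus had the least even signal, from 20829 to 40446 over its spots, and it was also the lowest LPS array. In rows 1 to 192 of the array the mean spot of LPS 1 was 0.81 times that in rows 193 to 384, whereas this ratio was 1.06 on LPS 2 and 1.04 on LPS 3. On the controls it was 0.95, 0.89 and 0.87. The 19-base probe was also least even on LPS 1, with a coefficient of variation of 29.4%. This was 22.1% on control 3 and 8.46% to 10.8% on the other arrays. For the 19-base probe the ratio of rows 1 to 192 over rows 193 to 384 was 0.68 on LPS 1. The change of miR-21a-5p was 1.36 (SE 0.09) from the spots in rows 1 to 192 and 1.31 (SE 0.05) from those in rows 193 to 384. Each part was scaled anew from its own spots, which divides out unevenness that the miRNAs share. The likeness of these changes is therefore partly built in, and it does not show that the result is free of such unevenness. Without LPS 1 the change of miR-21a-5p was 1.40.

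**Figure D2:**
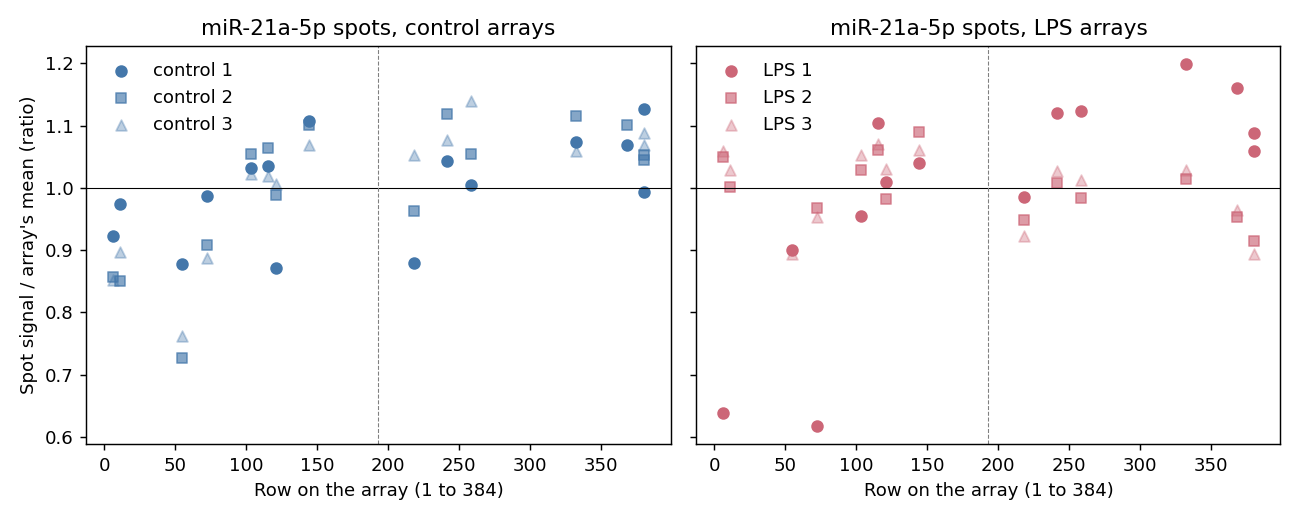
Signal of each miR-21a-5p spot (20-base probe) divided by the mean of its array, against the row of the spot on the array, for the 3 control and 3 LPS arrays; the dashed line separates rows 1 to 192 from rows 193 to 384. The widest scatter is on LPS 1, with its dimmest spots in the low rows.

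miR-21a-3p, the passenger arm, was at background in the controls and faint after LPS. On its brightest probe, of 15 bases, the signal was -6.22, -2.45 and -1.72 on the controls and 26.3, 34.7 and 36.6 on the LPS arrays. A value below 0 means a spot dimmer than the background estimate. The LPS arrays were all above the controls, by 36.0 on average, with an exact permutation p of 0.1. The arm was flagged as detected on 0 of 3 control and 3 of 3 LPS arrays. By the stricter flag, well above background on most spots, it passed on 0 control arrays and on LPS 1 and LPS 3, with 4, 3 and 4 of 7 spots on LPS 1 to 3.

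The negative-control spots of the same arrays give a measure of how faint this was. On the LPS arrays the miR-21a-3p signal stood 2.52, 2.50 and 4.11 SD above the mean of the negative controls. On the control arrays it stood at -2.53, -1.84 and -1.82 SD, below that mean on each.

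Whether a passenger-arm signal was seen changed with the length of the probe. The 14-base probe read -0.06, -5.11 and -9.35 on the controls and 20.0, 19.7 and 22.4 on the LPS arrays. As with the 15-base probe, all 7 spots on each LPS array were significantly above background by the scanner software's test, but 0 were well above background. The 13-base probe read 0.03, -1.80 and -2.55 against 1.05, 2.34 and -1.09, and the 12-base probe -7.15, -8.58 and -8.76 against -9.13, -8.65 and -10.2. These shorter probes, which cover fewer bases of the arm, overlapped between the groups (exact permutation p = 0.2 for each).

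No fold change is given for miR-21a-3p. The lowest signal that was well above background on the control arrays, after scaling, was 62.7 to 74.6, which exceeds the scaled signal of the passenger arm on every LPS array (13.4, 15.2 and 16.2). In the fit across all miRNAs, with the controls set to the floor of 9.89, the difference was 0.59 (SE 0.07, limma adjusted p = 2.74e-04). The arm entered that fit through the LPS arrays alone. Its floored controls have an SD of 0 by construction, so they add no spread to the SE. The size of the difference depends on the floor. For miRNAs detected on the 3 LPS arrays and 0 controls, 77.5% of 187 were called higher. The call was lost when the floor was 2 times higher (0.00, adjusted p = 1), and the value was 0.017 with the mean over its probes. The sign turned with normexp background correction (-0.51) and with quantile normalization (-0.012). With slide row as a block the difference was 0.44, and within the first row, scaled anew, it was 0.46. Both values set LPS 1 alone against the floored controls and are not separate checks. The authors' table listed the arm at 2.75, 2.69 and 2.63 in the controls and 2.98, 3.0 and 3.03 in the LPS samples. The median of all miRNAs in that table was 2.73 to 2.74 in every sample, so the passenger arm moved from just around that median to just above it.

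The relatives of the guide arm were not flagged as detected on any array. miR-21b read 21.3, 16.2 and 14.1 on the controls and 14.8, 19 and 12.8 on the LPS arrays, and the groups overlapped (exact permutation p = 0.6). After scaling, its signal was 37.7 ± 11.4 in the controls and 7.18 ± 1.36 in the LPS samples, and the authors' table listed 4.30 ± 0.45 against 3.03 ± 0.06 (SD, n = 3), both without overlap and lower in LPS (exact permutation p = 0.1). miR-21c, which has the same seed as miR-21a-5p, read 3.26, 2.72 and 3.67 on the controls and 2.15, 4.57 and 1.39 on the LPS arrays (exact permutation p = 0.6). miR-590-5p had a mean of 9.79 ± 1.93 in the controls and 7.26 ± 2.41 in the LPS samples (SD, n = 3 each, exact permutation p = 0.3). After scaling, miR-21c was 6.99 against 1.24 and miR-590-5p 21.1 against 3.34. The authors' table listed 2.83 against 2.74 and 3.05 against 2.87. As for miR-21b, these were lower in LPS without overlap (exact permutation p = 0.1). How many of the other undetected miRNAs were lower in the same way was not counted, so nothing about the family is read from these differences. Scaling divided controls by 0.42 to 0.50 and LPS arrays by 1.97 to 2.28, which lowers a level signal in LPS. The gene total signal of miR-21b, miR-21c and miR-590-5p was higher in LPS. Of the 4 miRNAs of this family, 1 was thus flagged as detected. By the scanner software's test, the brightest miR-21b probe had 11 to 15 spots per array significantly above background, and that of miR-590-5p 4 to 9, but none of these spots was well above background except 1 spot of miR-21b on control 1.

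The probes of miR-21b and miR-21c are shown because they share letters with the 20-base miR-21a-5p probe. The shared run is in capitals.
miR-21b, 20-base probe: ggaaatATCAGTCTGATAAa
miR-21c, 19-base probe: ttgtacCAGTCTGATAAGC
Each run is 13 bases long. While the 20-base probe of miR-21a-5p rose by a signal of 36088, this miR-21b probe differed by -1.67 and this miR-21c probe by -0.52.

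Next the guide arm was placed among all other miRNAs. Its change was larger than that of 143 of the 197 others detected on all 6 arrays (72.6%) and smaller than that of 54. It stood 0.59 above their median change of 0.77, both on the scaled log2 scale. Dividing arrays by 1 factor each leaves this order as it is. The share was 68.0% after quantile normalization, 82.2% in the authors' table and 88.3% with normexp, so the position of miR-21a-5p in the upper part held while its exact place did not.

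**Figure D3:**
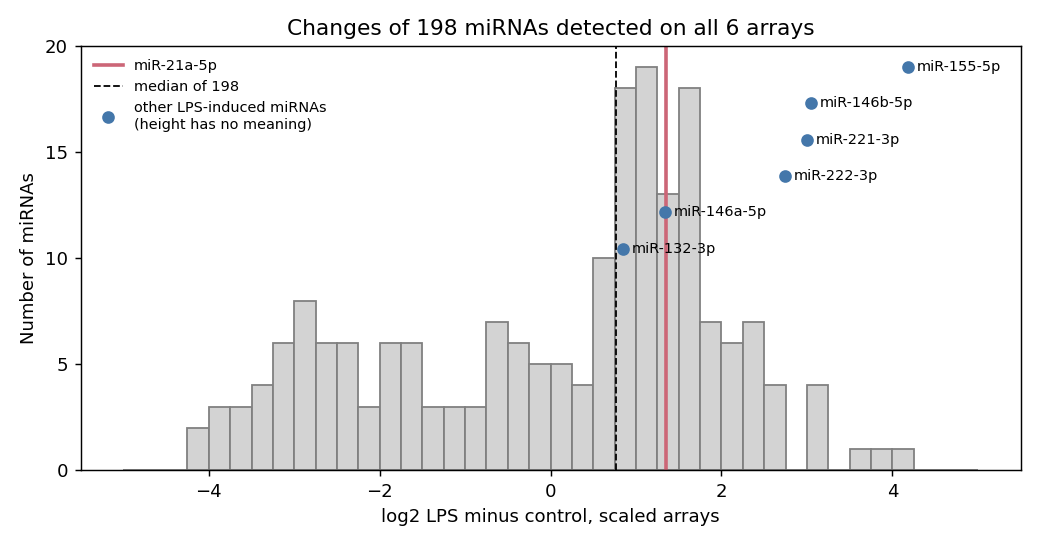
Histogram of the scaled log2 change, LPS minus control, of the 198 miRNAs detected on all 6 arrays, with miR-21a-5p as a red line, the median as a dashed line and 6 other LPS-induced miRNAs as points. miR-21a-5p, at 1.36, lies above the median of 0.77 and beside miR-146a-5p, and below miR-222-3p, miR-221-3p, miR-146b-5p and miR-155-5p.

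A list of 15 other miRNAs known to be induced by TLR4 signalling was set beside the guide arm; it was drawn up with earlier results of these data known. Of these, 6 were detected on all 6 arrays and all 6 were called higher, against 58.1% of all miRNAs so detected. Their median change was 2.87, beside 0.77, and 4 of the 6 had a larger change than miR-21a-5p. A further 5 were detected on the LPS arrays only and were called higher too, as were 77.5% of all miRNAs of that kind, which passed the detection filter through the LPS arrays alone. The 4 not detected on any array were miR-155-3p, miR-147-3p, miR-9-5p and miR-187-3p.

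For the 6 members detected on all arrays, the change of miR-21a-5p was compared with theirs array by array. miR-155-5p, which targets the inositol phosphatase Inpp5d, rose by 4.18, and the change of miR-21a-5p was smaller by a difference of -2.83. miR-146b-5p and miR-146a-5p both target adaptors of TLR signalling, Traf6 and Irak1. miR-146b-5p rose by 3.05, a difference of -1.70. miR-221-3p and miR-222-3p, a clustered pair that targets the cell-cycle inhibitor Cdkn1b, rose by 3.0 and 2.74, with differences of -1.65 and -1.39. miR-132-3p, a CREB-responsive miRNA, rose by 0.85, which was less than miR-21a-5p by 0.51. In each of these 5 pairs the log2 difference between the miRNAs did not overlap between control and LPS arrays (exact permutation p = 0.1, 0.12 after Benjamini-Hochberg over 6 pairs, with 0.1 the smallest possible). Pairs of miR-21a-5p with miRNAs outside the list were not counted. Singly, 98.5% of the miRNAs detected on all 6 arrays did not overlap between groups, so nothing particular to the list is read from these pairs. With the gene total signal in place of the brightest probe, miR-155-5p (-1.04) and miR-146b-5p (-1.79) were negative, while miR-21a-5p was 1.71.

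The remaining pair was miR-21a-5p and miR-146a-5p, whose changes could not be told apart. miR-146a-5p read 1678, 1996 and 1872 on the controls and 18233, 24121 and 23711 on the LPS arrays, with LPS 1 again lowest. Its scaled change was 1.34 (SE 0.06), and the difference from miR-21a-5p was 0.01, with an SD of 0.04 over controls and 0.05 over LPS arrays (exact permutation p = 0.7). The changes of miR-21a-5p and miR-146a-5p were 1.76 and 1.79 in the authors' table and 1.71 and 1.70 with the gene total signal. After quantile normalization they lay further apart, at 0.92 (SE 0.04) and 1.14 (SE 0.04).

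Of the 5 detected on the LPS arrays only, let-7e-5p was at least 1.81-fold higher and miR-125a-5p at least 1.34-fold higher in LPS, where the bound sets the LPS mean against the lowest signal well above background on the controls. For miR-212-3p, miR-9-3p and miR-99b-5p that bound was under 1 and no fold is given. With normexp background correction the fitted changes of all 5 were negative.

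In studies of resolving inflammation miR-21 has been grouped with miR-146b, miR-208a and miR-219. Here miR-146b-5p rose, as above. miR-219a-5p read 21.2, 22.0 and 23.3 on the controls and 212, 243 and 248 on the LPS arrays, and was at least 1.55-fold higher after scaling, but its fitted change was -0.30 with normexp and -0.077 with the gene total signal. miR-208a-3p was not detected on any array.

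The 5 miRNAs whose pattern was most like that of miR-21a-5p over the 6 arrays were taken from the 197 others, by the smallest root mean square difference of scaled log2 values, each centred on its own mean. They were miR-20b-5p (0.022), miR-27a-3p (0.022), miR-146a-5p (0.036), miR-34c-5p (0.042) and miR-107-3p (0.053). Their changes ran from 1.32 to 1.36, close to that of miR-21a-5p by the way they were picked. miR-20b-5p, a miRNA of the miR-106a cluster, read 256, 306 and 297 on the controls and 2914, 3655 and 3783 on the LPS arrays. miR-27a-3p, of the miR-23a cluster, read 461, 549 and 520 against 5227, 6404 and 6519. In these unscaled values control 1 and LPS 1 were the lowest of their groups for both, as for miR-21a-5p. The same 2 arrays had the lowest 75th percentile of their groups (431 and 2022), so this order does not mark likeness.

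The last comparison placed the 2 arms among other hairpins. Of 723 hairpins with both arms on the array, 134 had at least 1 arm detected on all 6 arrays. The state of miR-21a, with 1 arm on all arrays and the other on the 3 LPS arrays only, was found in 25 of these. In 100 the other arm was detected on no array, in 4 both arms were detected on all 6, and 5 had other combinations. Among the 25, the arm seen on all arrays was called higher in 22 and lower in 3, beside 58.1% higher and 38.4% lower over all miRNAs detected on all 6 arrays. These 25 were picked by a partner arm seen only with LPS, so nothing is read from their share. The bound for the other arm was above 1 in 3 of the 25, and miR-21a-3p, at 0.21, was not among these 3.

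Hairpins of the other LPS-induced miRNAs were in several states. For miR-222 the state was that of miR-21a: the minor arm miR-222-5p read 2.82, 5.25 and 6.61 on the controls and 53.4, 61.3 and 65.9 on the LPS arrays. The arms miR-155-3p, miR-146a-3p, miR-146b-3p, miR-132-5p and miR-221-5p were detected on no array, although their partner arms were detected on all 6. That was also the state of 100 of the 134 hairpins above, so nothing particular to these miRNAs is read from it. For miR-125a and miR-99b both arms were detected on the 3 LPS arrays only. miR-155-3p read 3.21, 3.56 and 2.29 on the controls and 3.0, 2.47 and 2.44 on the LPS arrays, while its partner rose by more than any other of the list.

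**Figure D4:**
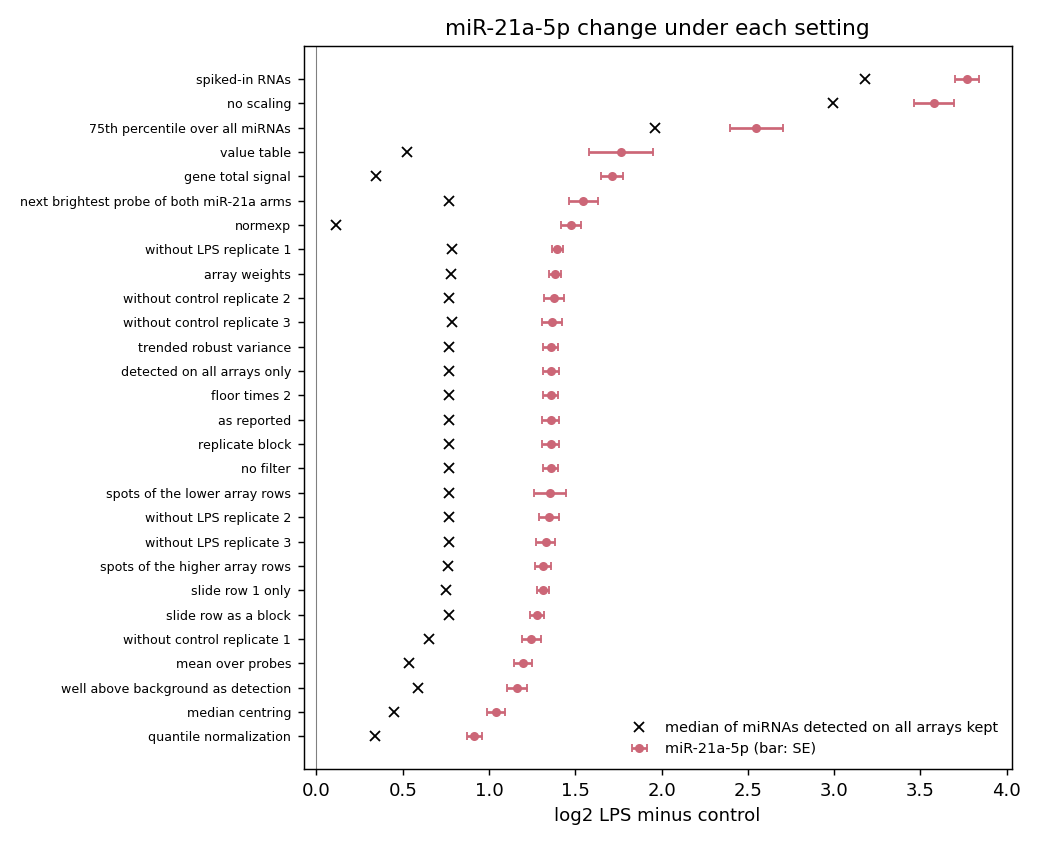
Change of miR-21a-5p (log2 LPS minus control, point, with its limma SE) and median change of the miRNAs detected on all arrays used (cross) as reported and under each other setting of scaling, background, probe, filter, block or left-out array. The change ran from 0.92 with quantile normalization to 3.77 with the spiked-in RNAs, and it lay above the median under each of the settings drawn.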

How the data were processed

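Exosomal RNA of RAW 264.7 cells was hybridised to Agilent one-colour mouse miRNA arrays, 3 control and 3 LPS; the labels' protocol names a low-input cRNA labelling kit. The processed intensity per spot was deposited as background-subtracted scanner output, made with Feature Extraction 10.7.1.1 per the file headers, while the submitters' processing notes name version 9.1. The deposited value table holds normalized log2 values by the authors; its scaling and centring are not stated in what was used here.

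Outlier and control spots were left out, spots averaged per probe, and the brightest probe taken per miRNA. Signals were divided by the 75th percentile of each array, taken over the 198 miRNAs with a detection flag on all 6, floored at 9.89 and log2-transformed. A miRNA was tested (412) when detected on 3 of 3 arrays of a group. limma 3.58.1 in R 4.3.3 gave changes, with Benjamini-Hochberg adjusted p under 0.05 as the threshold; the number of arrays limits the precision. Tested on simulated data of 412 miRNAs, it found 80% of log2 changes of size 0.5 and 100% at sizes 1, 2 and 3, and called 2.36% of 212 unchanged ones. The simulation drew normal noise around each miRNA's mean and left out scaling, floor and filter. It therefore checks the fit alone, not how those steps act on these data.

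The members and lists were chosen with earlier results of these data known. Named miRNAs were both arms, the seed family, the LPS-induced and resolution lists, marker miRNAs (by count, with up to 3 examples beyond those undetected), hairpins of the LPS-induced list and the 5 nearest patterns. Sequences matched RefSeq for both arms and 4 of 5 sequences of the family. Nothing in the labels says that a number pairs samples, so numbers were not used as pairs. Deviations from the group means had r of -0.40, -0.22 and -0.28 for same-numbered control and LPS arrays, and -0.32 to 0.43 for the others. Centred within 3 arrays, such values depend on each other and cannot decide pairing. Alternatives covered scaling, background correction, signal column, probe, detection, filter, floor, variance, blocks and left-out arrays.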

Additional observations from a re-analysis of the deposited data

How the results depend on the processing

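miR-21a-5p was called higher under all 27 alternatives run, with changes of 0.92 to 3.77. The limma adjusted p was at most 1.62e-04 in the alternatives that do not use slide row. In the first row alone and with slide row as a block, only LPS 1 stands against the controls. For these only the change is given, 1.31 and 1.28. Leaving out 1 array at a time gave 1.24 to 1.40 for miR-21a-5p, 0.55 to 0.65 for miR-21a-3p, 264 to 272 miRNAs called higher, 108 to 119 called lower and 11 of the LPS-induced list called higher in each case. With the replicate block the changes were 1.36 for miR-21a-5p (adjusted p = 2.57e-05) and 0.59 for miR-21a-3p (adjusted p = 0.00155), with 270 and 110 calls, so the block changed none of these. miR-21a-3p ranged from -0.51 to 3.12 over 25 alternatives: it was no longer called with the floor 2 times higher (0.00), the mean over probes (0.017) and, in alternatives chosen after seeing the data, the next brightest probe (0.020) and the spots of rows 1 to 192 (0.037), and it was negative with normexp (-0.51) and quantile normalization (-0.012). It was 3.12 with the gene total signal and 0.31 in the authors' table. Filtering on detection on all arrays or on well above background left miR-21a-3p untested. Counts of 270 higher and 110 lower became 337 and 59 with the percentile over all miRNAs, 364 and 39 with no scaling, 370 and 38 with the spiked-in RNAs, 211 and 151 with quantile normalization, 113 and 284 with normexp, 255 and 269 with no filter, 115 and 77 over miRNAs detected on all arrays, and 170 and 84 with the well-above-background flag. The median change of all tested miRNAs, 0.85 as reported, was 1.72, 2.03, 2.15, 0.24 and -0.58 under the first 5 of these, 0.00 with no filter, 0.77 under the filter on all arrays and 0.013 with the well-above-background flag. It was 0.59 with median centring, 0.50 with the floor 2 times higher and 1.39 with the gene total signal. Of the LPS-induced list, 6 were called higher with normexp and 6 under the filter on all arrays. Signs turned with normexp for let-7e-5p (-0.066), miR-125a-5p (-0.22), miR-212-3p (-0.41), miR-219a-5p (-0.30), miR-9-3p (-0.91) and miR-99b-5p (-0.62), with the gene total signal for miR-146b-5p (-1.79), miR-155-5p (-1.04) and miR-219a-5p (-0.077), and with quantile normalization for miR-9-3p (-0.14). The filters test fewer miRNAs by construction; for the other changes the cause was not tested. Signal over background limits the passenger arm, which the control arrays could not have shown well above background at its scaled LPS level; unscaled, its signal on LPS 2 and LPS 3 (34.7 and 36.6) was above the lowest such control signals (31.1 to 34.4).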
